A study of Mus musculus with 12 samples.

Results

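The endothelial identity genes described here are 9 genes that mark the cells lining blood vessels: the junction genes Pecam1 and Cdh5, the secreted or surface proteins Vwf and Emcn, the secreted factor Egfl7, the receptor genes Calcrl and Ramp2, and the transcription factor genes Sox17 and Sox18. The list of names was drawn up with earlier results of these arrays known, and each gene was then found by its symbol, through the accessions in the array design. All 9 were found, on 14 of the 41174 probes of the array, among 17178 genes with a symbol. Their transcripts were read on 12 one-colour Agilent mouse expression arrays, 3 each for reprogrammed lung, reprogrammed mammary, adult lung and adult mammary cells, and every group carries the label epithelial cells. The labels' protocols describe adult donor cells from female mice of 10 weeks, with organs perfused, digested with trypsin and collagenase, and washed and spun at low speed 7 times for lung and 5 times for mammary gland. They name no cell sort. Such cells were mixed with Matrigel for transplantation. The labels give no genotype, strain or transgene for any group, and they leave unsaid how the reprogrammed cells were recovered and whether lung or mammary in a reprogrammed label names the donor organ or the new tissue. Nothing in the labels ties arrays to animals, so the p-values measure the spread between arrays, which may be technical.

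Endothelial cells line every blood vessel and share a set of adhesion, receptor and transcription factor genes. Pecam1 (CD31) and Cdh5 (VE-cadherin) hold neighbouring endothelial cells together. Vwf is the clotting glycoprotein stored in endothelial granules and in platelets, and Emcn (endomucin) is a sialomucin of capillary and venous endothelium. Egfl7 is a factor that endothelial cells secrete. Calcrl is a G protein-coupled receptor that becomes an adrenomedullin receptor when it is paired with the accessory protein Ramp2, and this pair maintains the vessel barrier. Sox17 and Sox18 are related SOX transcription factors that act in arterial and in vascular and lymphatic development. The lung holds one of the densest capillary beds of the body.

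Promoter sequences show the regulatory stretch in front of members whose levels behaved differently below: Calcrl, which differed most between groups, Egfl7, and Emcn, for which no difference passed the test. Only these 3 of the 9 members matched the RefSeq promoter table (GRCm38.p6), which gives 250 bases before to 50 after a transcription start. Capitals mark the letters GGAA or TTCC, the core that ETS factors bind, and ACAAT or ATTGT, a core of SOX sites. The Calcrl promoter lies on the minus strand at chr2:84425217-84425516, the most upstream of 3 Egfl7 starts in the table on the plus strand at chr2:26580833-26581132, and the Emcn promoter on the plus strand at chr3:137340828-137341127.
Calcrl: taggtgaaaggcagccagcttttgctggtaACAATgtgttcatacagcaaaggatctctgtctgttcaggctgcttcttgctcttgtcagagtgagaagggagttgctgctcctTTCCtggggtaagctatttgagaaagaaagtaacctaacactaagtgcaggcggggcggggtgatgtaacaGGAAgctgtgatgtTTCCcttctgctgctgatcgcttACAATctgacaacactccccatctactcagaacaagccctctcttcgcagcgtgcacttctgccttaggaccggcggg
Egfl7: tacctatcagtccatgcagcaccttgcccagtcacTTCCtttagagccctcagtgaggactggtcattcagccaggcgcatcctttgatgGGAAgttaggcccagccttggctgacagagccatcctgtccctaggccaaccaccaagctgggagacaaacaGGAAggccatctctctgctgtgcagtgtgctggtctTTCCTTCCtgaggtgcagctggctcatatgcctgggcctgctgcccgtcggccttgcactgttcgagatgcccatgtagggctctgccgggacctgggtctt
Emcn: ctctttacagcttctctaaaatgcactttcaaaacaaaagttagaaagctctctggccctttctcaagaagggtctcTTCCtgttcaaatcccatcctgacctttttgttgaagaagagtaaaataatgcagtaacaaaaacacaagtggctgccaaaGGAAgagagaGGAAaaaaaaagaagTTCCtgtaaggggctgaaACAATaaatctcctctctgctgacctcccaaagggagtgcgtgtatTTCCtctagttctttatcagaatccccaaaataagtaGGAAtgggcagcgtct
On both strands together, GGAA occurred 3 times before Calcrl, 5 times before this Egfl7 start and 6 times before Emcn. Of the 32851 promoters of the same length, 96.0% hold it at least once. At least 3, 5 and 6 matches are held by 66.3%, 28.6% and 15.7% of them. The letters ACAAT occurred 2 times before Calcrl and 1 time before Emcn. They are held at least 1 time by 31.0% of the promoters and at least 2 times by 7.98%. They are not in the 3 Egfl7 windows. The matches are descriptions of sequence and no measure of binding. An intron of Egfl7 is known to hold the endothelial microRNA miR-126, and its hairpin in the reference table lies inside the gene. Its mature sequence is shown with the seed, bases 2 to 8, in capitals.
mmu-miR-126a-3p: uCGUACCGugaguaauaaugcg

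Levels are on a log2 scale relative to the 75th percentile of the same array, which is 0, and they are compared only for the same probe. All 14 member probes were well above background on all 12 arrays and none was saturated. On 10 arrays 72.1% to 77.8% of spots were above background, but adult mammary replicate 4 had 89.2% and reprogrammed lung replicate 1 had 91.2%, with a narrower spread of signal. Adult mammary replicate 4 had the lowest level of all 12 arrays for all 9 members. The 12 epithelial genes examined, Epcam and Krt18 among them, averaged 0.56 to 2.50 in reprogrammed lung, 2.76 to 3.03 in reprogrammed mammary, 0.13 to 0.58 in adult lung and 2.79 to 3.01 in adult mammary. The low end in reprogrammed lung was replicate 1. Epcam averaged 3.52 ± 1.69 in reprogrammed lung, 4.66 ± 0.30 in reprogrammed mammary, 0.83 ± 0.23 in adult lung and 4.65 ± 0.09 in adult mammary (SD, n = 3 each). The adult lung arrays, labelled as epithelial cells, had lower epithelial marker levels than either mammary group.

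Reprogrammed lung cells were set against adult lung cells to ask how the vascular gene set differed between these groups. Of the 9 genes, 6 were lower in reprogrammed lung and none was higher, with Calcrl, Ramp2, Cdh5, Egfl7, Sox18 and Pecam1 past the threshold. Vwf and Emcn overlapped between the groups. Of all 24504 features tested, 23.4% passed in this comparison, 9.31% lower and 14.1% higher (limma, Benjamini-Hochberg adjusted p under 0.05), and the median member difference was -1.71, against 0.10 for all features, which became -0.20 under normexp background correction. In bulk RNA, fewer endothelial cells and less RNA per endothelial cell cannot be told apart.

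Calcrl, the receptor, had levels of 0.25, -0.51 and -0.06 on the reprogrammed lung arrays, against 3.43, 3.54 and 3.44 on the adult lung arrays. The adult lung arrays lay within a narrow band, far above every reprogrammed lung array. The difference was -3.57 ± 0.24 (SE), or 11.9-fold lower (limma adjusted p = 1.17e-05). Ramp2, its partner in the adrenomedullin receptor, had 1.79, 1.00 and 1.74 in reprogrammed lung, against 3.99, 4.03 and 3.92 in adult lung. Ramp2 was lower in reprogrammed lung by 2.47 ± 0.29 (SE) on the log2 scale, 5.53-fold (limma adjusted p = 0.000262). Both receptor genes were thus lower on every reprogrammed lung array.

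Cdh5, the adherens junction cadherin, had 2.02, 2.37 and 1.56 in reprogrammed lung, against 4.45, 4.31 and 4.32 in adult lung. Its groups did not overlap, and Cdh5 was lower in reprogrammed lung by 2.38 ± 0.36 (SE) on the log2 scale, 5.19-fold (limma adjusted p = 0.00104). Pecam1, the other junction gene, had 4.41, 4.24 and 3.98 in reprogrammed lung, against 5.24, 4.99 and 4.83 in adult lung. The highest reprogrammed lung array was below the lowest adult lung array, yet the step was small at -0.81 ± 0.24 (SE), with a limma adjusted p of 0.0355. That call was lost in 14 of the 23 alternatives tried, among them leaving out any adult lung array, with values of -0.63 to -0.91.

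Egfl7, the secreted factor, had 3.09, 2.91 and 1.98 in reprogrammed lung, against 4.86, 4.76 and 4.61 in adult lung. Replicate 4 was the lowest of the reprogrammed lung arrays, and the groups did not overlap. Egfl7 was lower in reprogrammed lung by 2.08 ± 0.28 (SE) on the log2 scale, 4.24-fold (limma adjusted p = 0.000607).

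Sox18, a transcription factor of vascular and lymphatic development, had -0.20, -0.84 and -1.22 in reprogrammed lung, against 0.80, 1.1 and 0.96 in adult lung. Sox18 was lower in reprogrammed lung by 1.71 ± 0.29 (SE) on the log2 scale, 3.27-fold (limma adjusted p = 0.0022). Sox17, a factor of arterial specification, had -0.59, -1.27 and -1.96 in reprogrammed lung, against -0.05, -0.08 and 0.15 in adult lung. All 3 reprogrammed lung arrays were lower, but they spread widely and the difference of -1.28 ± 0.53 (SE) did not pass the test (limma adjusted p = 0.11). It passed without adult mammary replicate 4, which enters only through the shared spread (-1.28, adjusted p = 0.0171), and without both narrow-range arrays (-1.62, adjusted p = 0.00154). In that last fit 7 members were lower, where 15.2% of features were.

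Vwf had 3.72, 4.27 and 4.16 in reprogrammed lung, against 4.06, 3.59 and 3.66 in adult lung. These ranges overlapped, and the difference of 0.28 had a 95% interval of -0.40 to 0.96. Emcn had 1.63, 1.96 and 1.66 in reprogrammed lung, against 1.88, 1.57 and 1.44 in adult lung, also overlapping. Its difference was 0.12, with an interval of -0.58 to 0.82. The upper ends of both intervals lie below a 2-fold increase, and both intervals include 0. Together 7 of the 9 members did not overlap between the groups with reprogrammed lung lower, against 15% of all features with complete values.

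**Figure D1:**
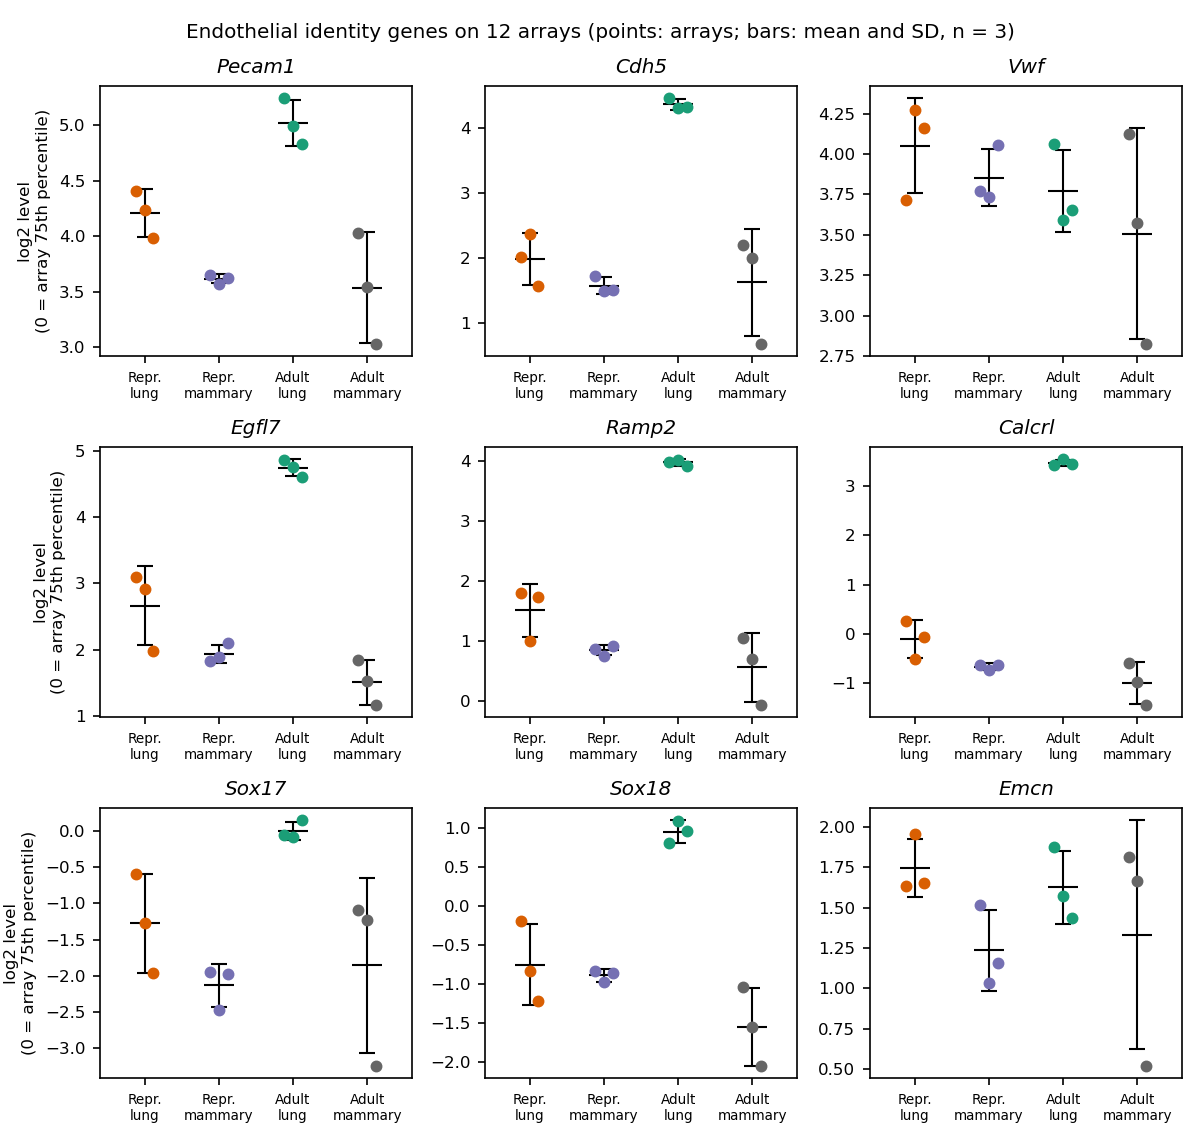
Log2 level (0 is the array's 75th percentile) of each of the 9 genes in reprogrammed lung, reprogrammed mammary, adult lung and adult mammary, with a point per array and bars for mean and SD of 3 arrays. Adult lung is the highest group in 7 panels, with Calcrl between 3.43 and 3.54 there, while Vwf and Emcn show overlapping groups.

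Slides held up to 3 arrays, and 3 of the 5 slides carried a reprogrammed and an adult lung array. Within each of those slides the 7 genes were lower in reprogrammed lung, from -3.94 to -3.19 for Calcrl, -2.99 to -2.13 for Ramp2, -2.74 to -2.08 for Cdh5 and -2.78 to -1.51 for Egfl7. Sox18 ran from -2.32 to -1.16, Sox17 from -1.88 to -0.74 and Pecam1 from -1.01 to -0.42. Vwf was 0.06 to 0.57 and Emcn 0.08 to 0.20 on the same slides.

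Among the members 4 have more than 1 probe, and the brightest stands for the gene above. The second Calcrl probe gave -3.20 and the second Cdh5 probe -2.31 between reprogrammed and adult lung. The second Vwf probe gave 0.26. Sox17 was the gene whose probes differed: the other probes gave -1.05, which did not pass, and -1.74 (limma adjusted p = 0.00952), which did.

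**Figure D2:**
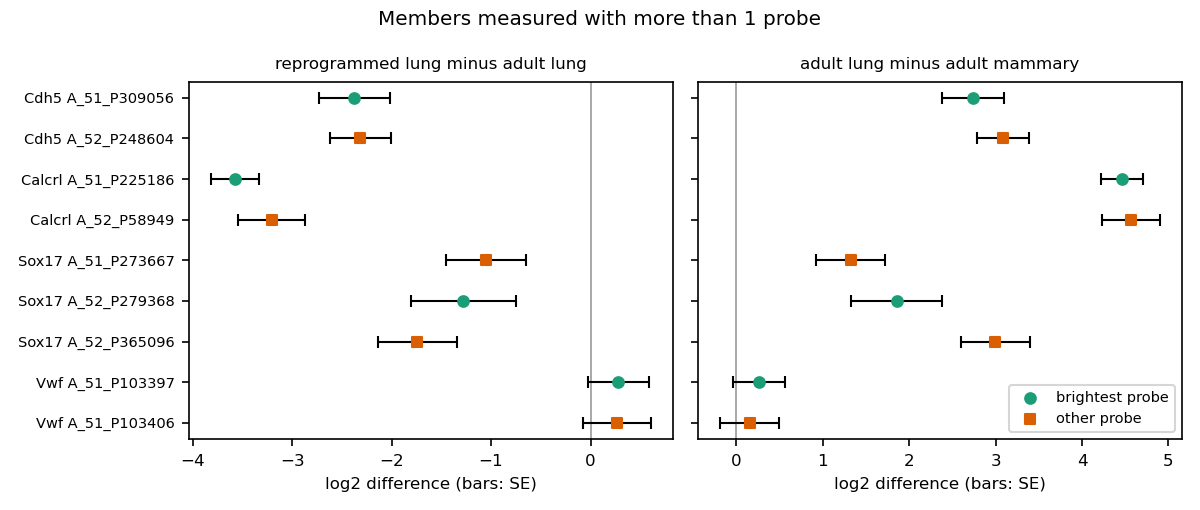
Log2 difference with its SE for each probe of Cdh5, Calcrl, Sox17 and Vwf, in reprogrammed lung minus adult lung (left) and adult lung minus adult mammary (right), with circles for the brightest probe and squares for the others. The probes of Calcrl, Cdh5 and Vwf lie close together, whereas the Sox17 probes run from -1.74 to -1.05 on the left.

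Adult lung was set against adult mammary to ask how the 2 donor organs differ. There 7 genes were higher in adult lung and none was lower, where limma called 28.5% of features, 12.5% higher and 15.9% lower. The median member difference was 2.51 and that of all features 0.00. The median of all features moved to 0.34 under normexp background correction, and the same 7 genes passed there as well. Of all calls 60.9% were higher with normexp, against 44.0% in the main fit. The share of all features passing with normexp was not taken, so no excess can be read from that count.

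Calcrl averaged 3.47 ± 0.06 in adult lung (SD, n = 3), against -0.58, -0.97 and -1.44 on the adult mammary arrays, and was 4.46 ± 0.24 (SE) higher in adult lung on the log2 scale, 22.1-fold (limma adjusted p = 3.6e-06). Ramp2 averaged 3.98 ± 0.05 in adult lung, against 1.05, 0.69 and -0.07 in adult mammary, and was higher in adult lung by 3.42 ± 0.29, 10.7-fold (limma adjusted p = 3.46e-05). Each adult mammary array was below each adult lung array for both receptor genes. Egfl7 averaged 4.74 ± 0.13 in adult lung, against 1.84, 1.52 and 1.16 in adult mammary, and was higher in adult lung by 3.24 ± 0.28, 9.42-fold. Cdh5 averaged 4.36 ± 0.08 in adult lung, against 2.19, 2.00 and 0.68 in adult mammary, and was higher in adult lung by 2.74 ± 0.36, 6.67-fold. These 2 genes also separated the organs without overlap, and adult mammary replicate 4 had the lowest Cdh5.

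Sox18 averaged 0.95 ± 0.15 in adult lung, against -1.05, -1.56 and -2.06 in adult mammary, and was higher in adult lung by 2.51 ± 0.29, 5.68-fold. Pecam1 averaged 5.02 ± 0.21 in adult lung, against 4.03, 3.55 and 3.03 in adult mammary, and was higher in adult lung by 1.48 ± 0.24, 2.79-fold (limma adjusted p = 0.00147). Sox17 averaged 0.01 ± 0.13 in adult lung, against -1.09, -1.23 and -3.25 in adult mammary, so that replicate 4 stood far below the other two. Its difference was 1.86 ± 0.53 (limma adjusted p = 0.0235), which became 1.16 (adjusted p = 0.0410) without that array and 1.62 (adjusted p = 0.133) with slide as a block. The other Sox17 probes gave 1.32 and 3.00, both past the threshold. Vwf averaged 3.77 ± 0.25 in adult lung, against 4.12, 3.57 and 2.82 in adult mammary. Emcn averaged 1.63 ± 0.23 in adult lung, against 1.82, 1.66 and 0.52 in adult mammary. Both genes overlapped between the organs. Their differences were 0.26 (95% interval -0.42 to 0.94) for Vwf and 0.30 (-0.40 to 0.99) for Emcn, and both turned negative without adult mammary replicate 4, at -0.08 for Vwf and -0.11 for Emcn. On the 1 slide that held both organs, Calcrl differed by 4.40, Ramp2 by 3.29, Egfl7 by 3.34, Cdh5 by 2.46, Sox18 by 2.36, Pecam1 by 1.69 and Sox17 by 1.18. In all, 7 of 9 members did not overlap with adult lung higher, against 24.8% of features.

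Reprogrammed mammary cells had lower levels than adult lung for the same 7 genes, and none was higher, where 26.1% of features passed, 11.2% lower and 14.9% higher. This comparison shares its adult lung arrays with both above. Calcrl had -0.62, -0.73 and -0.62 on the reprogrammed mammary arrays and was 17.5-fold below adult lung (-4.13 ± 0.24, limma adjusted p = 4.43e-06). The 3 reprogrammed mammary arrays lay close together. Ramp2 had 0.86, 0.75 and 0.91 there (-3.13 ± 0.29), Egfl7 1.82, 1.89 and 2.09 (-2.81 ± 0.28), and Cdh5 1.72, 1.49 and 1.51 (-2.78 ± 0.36). Sox17 had -1.94, -2.48 and -1.97 (-2.14 ± 0.53, limma adjusted p = 0.0129), a call lost with slide as a block (-1.68, adjusted p = 0.128). Sox18 had -0.84, -0.98 and -0.86 (-1.85 ± 0.29) and Pecam1 3.65, 3.57 and 3.62 (-1.40 ± 0.24). Vwf had 3.77, 3.73 and 4.05, a difference of 0.08 (95% interval -0.59 to 0.76), and Emcn 1.52, 1.03 and 1.16, a difference of -0.39 (-1.09 to 0.31). Reprogrammed mammary and adult lung did not overlap for 7 of the 9 members, lower in each, against 26% of features. On the 1 slide that held both groups, the 7 genes differed by -4.27 for Calcrl to -1.41 for Pecam1.

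**Figure D3:**
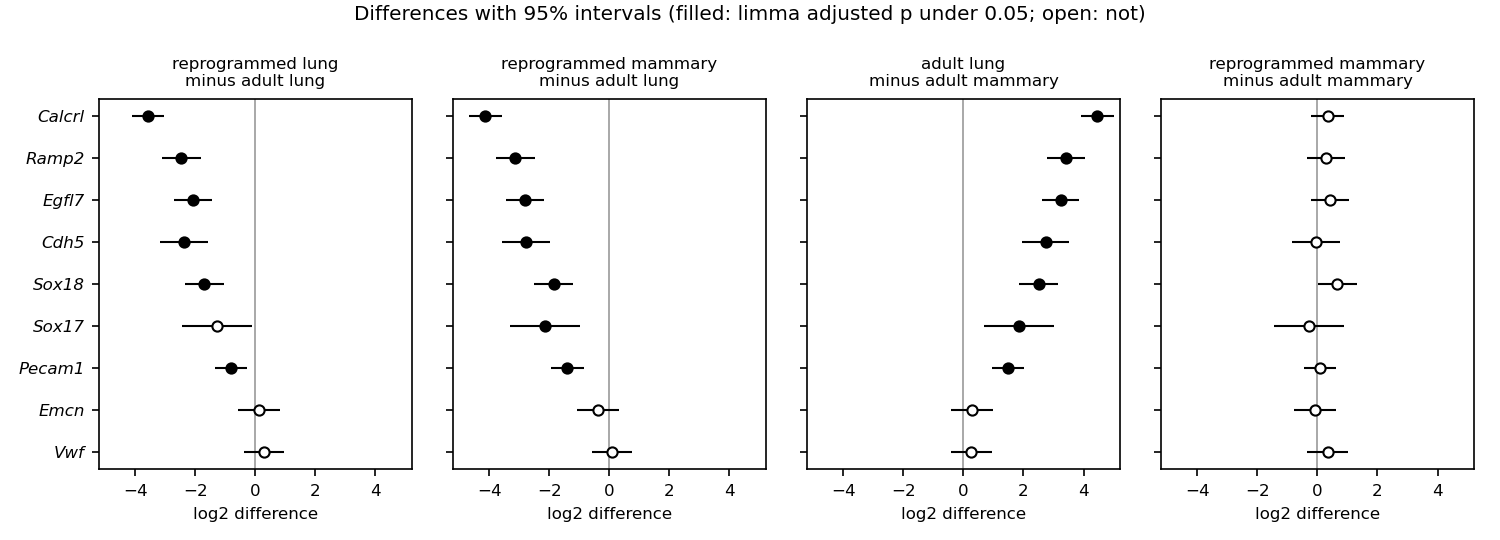
Log2 differences of the 9 genes with 95% intervals from the limma fit over 12 arrays, in 4 comparisons, with filled points past an adjusted p of 0.05. Calcrl has the largest difference of the 9 in the first 3 panels (-3.57, -4.13 and 4.46), while in reprogrammed mammary minus adult mammary no point is filled.

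Reprogrammed mammary was set against adult mammary as the matching comparison for the other organ name. No endothelial gene passed limma's test there, where 1 of 24503 features did (0.00408%). The 9 differences ran from -0.28 for Sox17 to 0.66 for Sox18, with a median of 0.28 against 0.02 for all features. Sox18 had the only unadjusted p under 0.05 (0.0476, adjusted 0.493), and it was the 1 member whose groups did not overlap, where 12.3% of features were higher without overlap. The intervals left room for sizeable shifts, such as -0.84 to 0.74 for Cdh5 and -0.20 to 1.06 for Egfl7. Leaving out 1 array gave 0 calls in each case. Without adult mammary replicate 4 the median difference was -0.03 and 5 of the 9 were negative. These were Sox17 at -0.97, Cdh5 at -0.52, Emcn at -0.50, Pecam1 at -0.17 and Ramp2 at -0.03. On one slide that held both mammary groups, 8 of the 9 differences were negative, from -0.86 to 0.21. On the other, the slide of adult mammary replicate 4, all 9 were positive, from 0.59 to 1.28.

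The reprogrammed minus adult values were compared between the organ names, as the value for lung minus the value for mammary. This contrast is also the organ difference in reprogrammed cells minus that in adult cells. The contrast was negative and past the threshold for 5 genes, Calcrl, Ramp2, Egfl7, Sox18 and Cdh5, where 12.8% of features passed, 5.39% lower and 7.41% higher. Calcrl gave -3.91 ± 0.34 (SE) and Ramp2 -2.75 ± 0.41 on the log2 scale. Egfl7 gave -2.51 ± 0.40, Sox18 -2.37 ± 0.42 and Cdh5 -2.33 ± 0.50, and the limma adjusted p ran from 0.000184 to 0.0149 over the 5. Pecam1 gave -0.89 (adjusted p = 0.123) and Sox17 -1.0 (adjusted p = 0.431). Vwf gave -0.06 and Emcn 0.22. Without adult mammary replicate 4, Vwf gave 0.28 and Sox17 -0.31.

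Fewer features passed in the comparisons of reprogrammed lung with both mammary groups than in the comparisons with adult lung. Between reprogrammed lung and reprogrammed mammary no member passed limma's test, where 0.00816% of features did. All 9 differences were positive, from 0.14 for Sox18 to 0.86 for Sox17, with a median of 0.55 against 0.06 for all features. An unadjusted p under 0.05 was found for 4 genes, Egfl7 (0.73), Ramp2 (0.67), Pecam1 (0.59) and Calcrl (0.55). The share of all features at that unadjusted threshold was not taken, so no excess can be read from this count. The groups did not overlap for 4 members, Pecam1, Ramp2, Calcrl and Emcn, with reprogrammed lung higher, against 6.97% of features. On the 1 slide with both groups Sox18 differed by -0.24. Between reprogrammed lung and adult mammary no member passed either, where 0.0286% of features did. All 9 differences were positive, from 0.36 for Cdh5 to 1.15 for Egfl7 (limma adjusted p = 0.213), with a median of 0.67 against 0.09 for all features. Of the members 5 had an unadjusted p under 0.05, again without a share of all features to set beside them. Without adult mammary replicate 4, 7 were positive, while Cdh5 stood at -0.11, Sox17 at -0.12 and Emcn at 0.01. Egfl7 and Calcrl did not overlap, with reprogrammed lung higher, against 6.46% of features. Without reprogrammed lung replicate 4, Egfl7 passed (1.49, adjusted p = 0.0166). On the slide with both, Egfl7 differed by 1.39 and Sox17 by -0.04.

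Ordered by mean level, adult lung came first for 7 genes, and the step to the next group, reprogrammed lung, passed the test for all of these but Sox17. The steps below it did not pass for any gene. For Vwf and Emcn reprogrammed lung came first, and no neighbouring groups differed beyond the test. The array with the highest Vwf (4.27) and Emcn (1.96) was reprogrammed lung replicate 3, while each of the other 7 genes peaked on an adult lung array.

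The wider endothelial programme was followed in lists of genes known for each role. These lists, and those of other cell types below, were chosen with earlier results of these arrays known. Their counts are descriptions and no independent support. In reprogrammed lung minus adult lung the counts stand beside 9.31% of all features lower and 14.1% higher. Of 24 further junction and surface genes, 16 were lower and 3 higher in reprogrammed lung than in adult lung (median -1.43, against 0.10 for all features). Clec14a, an endothelial C-type lectin, was lower by 3.20, Cldn5, the endothelial tight junction claudin, by 3.14, and Icam2, an adhesion molecule, by 2.91 on the log2 scale. Procr, the endothelial protein C receptor, went the other way, at 2.98. In adult lung minus adult mammary 18 of the 24 were higher and 1 lower (median 1.92), where 12.5% of all features were higher and 15.9% lower. Clec14a stood at 4.12, Cldn5 at 3.39, Icam2 at 3.34 and Kdr, a VEGF receptor, at 2.79.

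Among 9 tested lung capillary genes, 7 were lower and none higher in reprogrammed lung than in adult lung (median -2.28). In adult lung minus adult mammary 8 were higher and none lower (median 3.48), where 12.5% of all features were higher and 15.9% lower. Tmem100, a membrane protein of lung vessels, stood at -5.05 and 5.56 in these comparisons, Car4, a carbonic anhydrase, at -4.10 and 4.33, Hpgd, which degrades prostaglandins, at -4.05 and 4.67, and Apln, the apelin ligand, at -3.97 and 3.78. Of 9 arterial genes, 5 were lower and 1 higher in reprogrammed than in adult lung, with the ephrin ligand Efnb2 at -2.69, the co-receptor Nrp1 at -1.96 and the Notch ligand Dll4 at -1.38. The higher one was Bmx, a tyrosine kinase gene, at 1.52, which was well above background on 2 of the 3 adult lung arrays.

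Venous genes divided. Ackr1, the chemokine receptor of venules, was 6.01 higher in reprogrammed lung than in adult lung on the log2 scale, and the leukocyte-capturing selectins Selp and Sele were 3.84 and 3.49 higher. The apelin receptor gene Aplnr was at -1.89. Of 8 venous genes 3 were higher and 2 lower (median 0.20). In adult lung minus adult mammary Ackr1 stood at -5.77, Selp at -3.97, Sele at -3.53 and Aplnr at 2.08. Of 17 endothelial transcription factor genes, 4 were lower and 3 higher in reprogrammed than in adult lung (median -0.20), where 9.31% of all features were lower and 14.1% higher, so that the higher share is close to that of all features. Foxf1, a factor of lung mesenchyme and capillaries, stood at -5.63 and Gata2 at -3.30 on one side, Foxc1 at 3.31 and Meox2 at 1.67 on the other. Of 7 lymphatic genes 4 were lower and 2 higher, with the hyaluronan receptor Lyve1 at -5.79, the VEGF receptor gene Flt4 at -2.05, and the fate factor Prox1 and the matrix protein Reln at 2.38 and 2.23.

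Of the 8 tested genes of adrenomedullin and calcitonin-family signalling other than Calcrl and Ramp2, 1 was lower and 1 higher in reprogrammed lung than in adult lung, with Calcr, the calcitonin receptor, at -1.44 and Ramp1, the accessory protein for the CGRP receptor, at 1.21. These shares are near the 9.31% lower and 14.1% higher of all features. In adult lung minus adult mammary 1 was higher and 2 lower, also near the 12.5% and 15.9% of all features, with Calcr at 1.36 and Ramp1 at -0.93. The remaining one, Calca, the gene of calcitonin and CGRP, was not well above background on any adult lung array. No gene of any of these lists passed in the comparisons among reprogrammed lung, reprogrammed mammary and adult mammary. Only 0.00408% to 0.0286% of all features passed there, so the lack of calls is no result about these lists.

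Other cell types were followed beside the members, and their counts in reprogrammed lung minus adult lung also stand beside 9.31% of all features lower and 14.1% higher. Of 12 epithelial genes, 6 were higher and none lower in reprogrammed lung than in adult lung, and 9 were lower and none higher in adult lung than in adult mammary, where 15.9% of features were lower. Of 11 pericyte and smooth muscle genes, 6 were higher and 2 lower in reprogrammed than in adult lung. Rgs5, a pericyte gene, was among the higher ones at 3.12, and the lower ones were Pdgfrb at -1.12 and Des at -1.09. Of 9 fibroblast genes, 2 were higher, the matrix proteoglycan genes Lum (3.89) and Dcn (3.64), and 1 was lower, the growth factor receptor gene Pdgfra (-2.05). Among 9 genes, these counts are close to the shares of all features. The fibroblast genes averaged 4.91 on reprogrammed lung replicate 4, but 2.52 and 2.60 on replicates 1 and 3, against 2.03 to 3.07 in adult lung. Of 2 mesothelial genes tested, 1 was lower, Upk3b at -3.23, which was well above background on 2 of the 3 reprogrammed lung arrays. Platelets also carry Vwf, and the 10 measured platelet genes averaged -2.66 to -0.95 in reprogrammed lung, -2.54 to -2.35 in reprogrammed mammary, -1.39 to -0.88 in adult lung and -2.62 to -2.22 in adult mammary. Ppbp, a platelet chemokine, was well above background on 1 reprogrammed lung array, on no reprogrammed mammary array, on 3 adult lung arrays and on no adult mammary array. Of 9 platelet genes tested, 2 were lower and none higher in reprogrammed than in adult lung. The 9 leukocyte genes averaged 1.72 on reprogrammed lung replicate 1 but -2.05 and -1.95 on the other two, against -0.21 to 0.21 in adult lung. Of these 9, 1 was lower and none higher in reprogrammed than in adult lung, the lysozyme gene Lyz2 at -3.53. The lower share is near the 9.31% of all features. The part of these cell types in the members' differences was not tested.

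**Figure D4:**
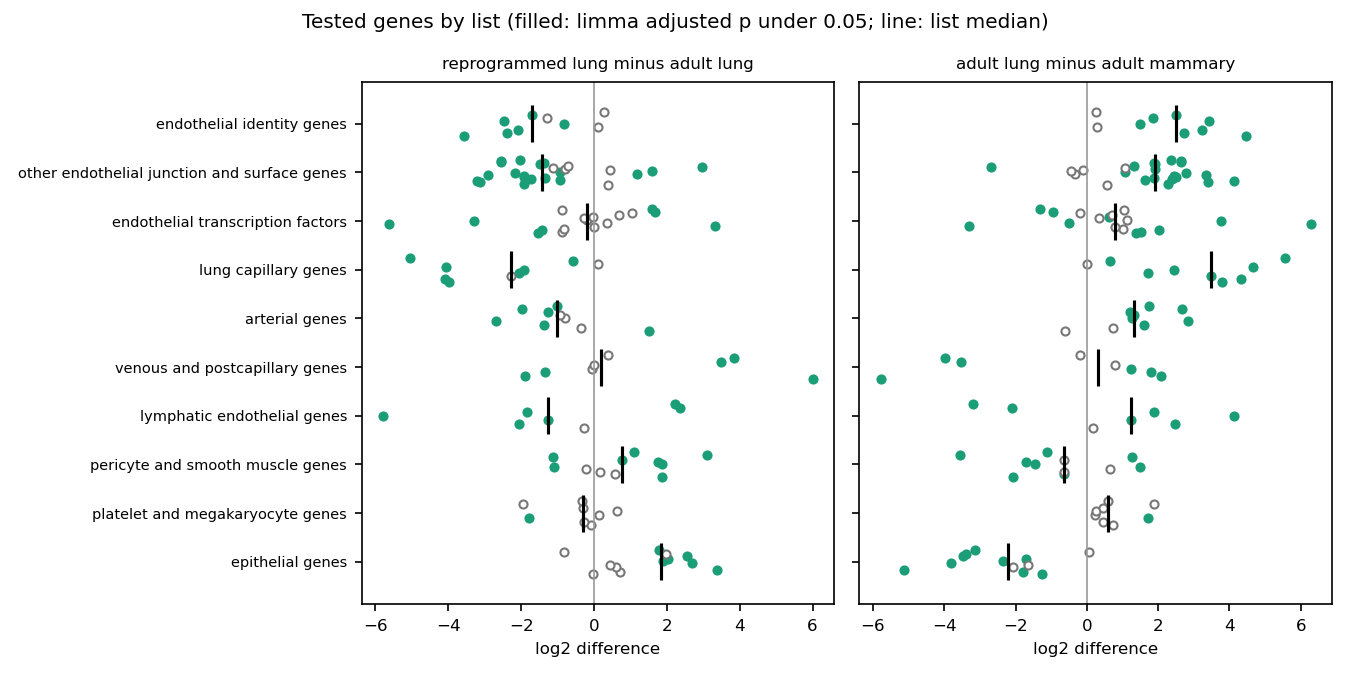
Log2 differences of the tested genes of 10 lists in reprogrammed lung minus adult lung (left) and adult lung minus adult mammary (right), with filled points past a limma adjusted p of 0.05 and a line at each list's median. The lists of endothelial identity, surface and lung capillary genes have medians of -1.71, -1.43 and -2.28 on the left, while venous genes run from -1.89 to 6.01, and Ppbp is not drawn.

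Genes with levels most like those of the members were sought among 14520 named genes over the 12 arrays, as the root mean square difference between centred log2 levels. Nearest to the members' mean profile was Erg (0.16), an ETS factor of endothelial cells, followed by Epas1 (0.19), a hypoxia-inducible factor, and Cavin2 (0.20), a caveolar coat protein. Stab1, Ptprb, Kank3, Esam, Atp2a3, Rapgef3 and Thsd1 came next, up to 0.22. Pecam1 lay nearest to Hip1 (0.16), Cdh5 to Tspan7 (0.21), Egfl7 to Arap3 (0.30), Ramp2 to the homeobox gene Hoxa5 (0.20), Calcrl to Smad6 (0.34), Sox17 to Erg (0.28) and Sox18 to Thsd1 (0.18). Vwf lay nearest to Pgm5 (0.16) and Emcn to Cd59b (0.17), and Filip1 was among the 3 nearest to both. Among the members the closest pair was Vwf and Emcn (0.27), then Egfl7 and Ramp2 (0.39), and the farthest was Vwf and Calcrl (1.80). These values share the arrays and their scaling and are descriptions without a test.

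**Figure D5:**
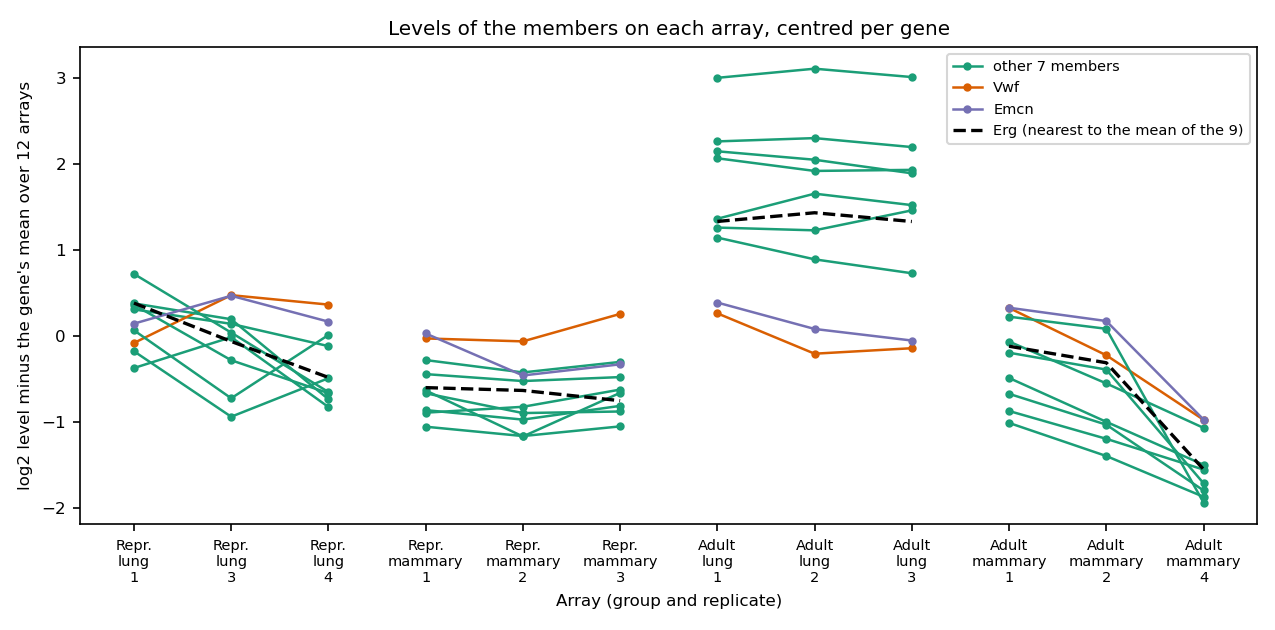
Log2 level of each member minus its own mean over the 12 arrays, by array, with lines joining arrays of 1 group only, Vwf and Emcn in their own colours and Erg dashed. The members' mean lies between 1.40 and 1.55 on the adult lung arrays and at -1.48 on adult mammary replicate 4, and Vwf and Emcn stay nearer to 0 than the other 7 in adult lung.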

How the data were processed

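Messenger RNA was measured in 12 mouse samples on single-colour arrays, and groups came from the sample titles. Per the file headers, the authors' deposited scanner files hold Agilent Feature Extraction 10.5.1.1 intensity values (the submitters' processing notes name 10.1): a background-subtracted processed signal, the median signal and the local background. The deposited series matrix holds the authors' log2 values, whose ranks on each array follow the raw median signal with no background subtracted. The sources used here do not give its normalization.

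Spots of a probe were averaged without outlier flags, log2 processed signal was scaled to each array's 75th percentile (signals of 293.8 to 608.5), and the brightest probe stood for a gene. Features well above background on all 3 arrays of at least 1 group were tested, which kept 24504 of 32678. Symbols came from a RefSeq table by accession. limma 3.58.1 in R 4.3.3 fitted 4 group means over 12 arrays, with two-sided p adjusted by Benjamini-Hochberg within each of 7 comparisons at 0.05. A feature missing a value on some array (308) was fitted on the arrays that had it. The number of arrays limits the precision. The files hold no mean signal, so the normexp alternative (offset 50) used the median signal. Other alternatives were quantile normalization, the authors' values, the dim-probe filter, probe averaging, slide and replicate blocks, array weights, the groups in the fit, and arrays left out. Members and lists were chosen with earlier results of these data known. All 9 members are named in each comparison with adult lung and in the contrast between organ names. In the comparisons without adult lung the range over the 9 is given and only some members are named. Of each list up to 4 genes with the largest differences past the threshold are named, and of the pericyte and smooth muscle list also the lower ones. The fit was tested on simulated data.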

Additional observations from a re-analysis of the deposited data

Results flagged for a closer look

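For 5 endothelial genes the reprogrammed minus adult change differed between lung and mammary by a direct test of that difference (limma interaction contrast, n = 3 arrays in each of 4 groups, adjusted over all features). Of all 24503 features, 12.8% passed the same contrast, 5.39% lower and 7.41% higher. Calcrl differed by -3.91, with -3.57 in lung and 0.34 in mammary. Ramp2 differed by -2.75, with -2.47 in lung and 0.28 in mammary. Egfl7 differed by -2.51, with -2.08 in lung and 0.43 in mammary. Sox18 differed by -2.37, with -1.71 in lung and 0.66 in mammary. Cdh5 differed by -2.33, with -2.38 in lung and -0.05 in mammary. Each reprogrammed lung array was below each adult lung array for these 5 genes. The contrast passed for Calcrl, Ramp2, Egfl7 and Sox18 in all alternatives tried, and for Cdh5 in all but the replicate block.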

How the results depend on the processing

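The counts of members past the threshold stayed within 1.5 times under the alternatives tried, except in reprogrammed lung minus adult mammary, where leaving out 1 array gave 0 to 1 calls (Egfl7 without reprogrammed lung replicate 4). No called difference changed sign. Over single members and all alternatives but the further probes, 20 calls were lost and 6 were gained: Pecam1 in reprogrammed lung minus adult lung accounts for 14 of those lost, Sox17 in adult lung minus adult mammary for 4 (slide as a block, and without adult lung replicate 1, 2 or 3). The Pecam1 contrast between organ names passed without adult mammary replicate 1 (-1.14, adjusted p = 0.0399). With the replicate block, 7 members were called in adult lung minus adult mammary, 5 in reprogrammed lung minus adult lung, 7 in reprogrammed mammary minus adult lung and 4 in the contrast between organ names, where Cdh5 missed (-1.67, adjusted p = 0.0501). The share of all features passing with this block was not taken, so no excess can be read from these counts. Arrays with the same number correlated from -0.53 to 0.33 after removing group means. The highest value of any pair, 0.64, joined the narrow-range arrays adult mammary replicate 4 and reprogrammed lung replicate 1. With 3 arrays a group and such arrays among them, this check cannot decide whether the numbers pair the samples. Of all calls in reprogrammed lung minus adult lung 60.2% were higher, against 39.7% with normexp and 47.5% with the authors' values. In adult lung minus adult mammary 44.0% were higher, against 60.9% with normexp. In reprogrammed mammary minus adult lung 57.0% were higher, against 42.9% with normexp, and in the contrast between organ names 57.9%, against 34.3%, 47.2% with quantile normalization and 44.0% with the authors' values. Testing each further probe of a member was added after seeing the data and gained the Sox17 call given in the report. With 3 arrays a group, small differences cannot be settled.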
